A study of Homo sapiens with 24 samples.

Results

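The comparison described here sets MDA-MB-231 cells overexpressing the dSRF form of MRTF-A against cells overexpressing wild-type MRTF-A (WT), both grown on top of matrigel, a gel of basement membrane proteins. MDA-MB-231 is an established line of human breast cancer with a mesenchymal character. The libraries were chosen by their titles: 3 of dSRF and 3 of WT, 6 of the 24 in the series. Both lines, and the control line set beside them, are labelled as given 1 ug/ml doxycycline for 72 h, the inducer of the MRTF-A transgene. All cultures held serum, and those on gel also held dissolved matrigel in the medium. The labels do not spell out dSRF, give no promoter, and do not say whether the lines are clones or whether the 3 libraries of a group came from separate cultures, so p-values may measure technical spread only. The stated aim of the series is to profile the effect of overexpressing MRTF-A forms. Values below are CPM, read counts scaled to the depth and composition of each library. The sign of a log2 fold change is that of dSRF minus WT, with the standard error of the fit and n = 3 per group. A gene was called, and is said to rise or fall, at an adjusted p under 0.05.

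MRTF-A, the product of MRTFA, is held in the cytoplasm by monomeric actin and moves to the nucleus when actin polymerises. There it joins the transcription factor SRF on CArG boxes, short motifs with an A/T-rich core, and drives actins, smooth muscle contractile genes, focal adhesion genes and SRF itself. SRF also works with ternary complex factors, which ERK signalling activates at immediate early genes.

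The transgene was uneven among the dSRF libraries. MRTFA (ENSG00000196588) stood at 4492, 4444 and 4610.1 CPM in WT 1, 2 and 3, and at 664, 4840.3 and 4857 CPM in dSRF 1, 2 and 3. Control cells on matrigel averaged 29.2 CPM. All 6 libraries were thus above control, but the library labelled 3D dSRF 1 held 13.7% of the MRTFA level of its partners, which lay just above WT. The MRTFA difference over all 6, -0.39 ± 0.39 in log2, was not called (adjusted p = 0.391). The correlation of this library's log2 CPM across genes was 0.946 and 0.950 with dSRF 2 and 3, 0.964 to 0.969 with dSRF in plates and 0.928 to 0.930 with 3D WT. The libraries labelled 3D dSRF 2 and 3 correlated at 0.984 with each other and at 0.876 to 0.880 with 3D WT. These are descriptions across genes, which are not independent. Of 2913 genes at least 2-fold apart between WT and dSRF 2 and 3, a choice that did not use library 1, this library lay between them for 2388 (82.0%), beyond dSRF 2 and 3 for 334 and beyond WT for 191. Its median position was 0.58 of the way from WT to the other dSRF libraries. Choosing genes by dSRF 2 and 3 itself favours positions short of them for the library left out. The genotype field of the labels disagrees with the titles for 4 of these 6 libraries. Of these 4 fields 1, which calls 3D WT 2 a control, goes against the MRTFA level of its library, while the other 3 name another MRTF-A line, between which MRTFA cannot tell. Values are given with all 6 libraries and, where they moved most, also with dSRF 2 and 3 alone ("without library 1").

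**Figure D1:**
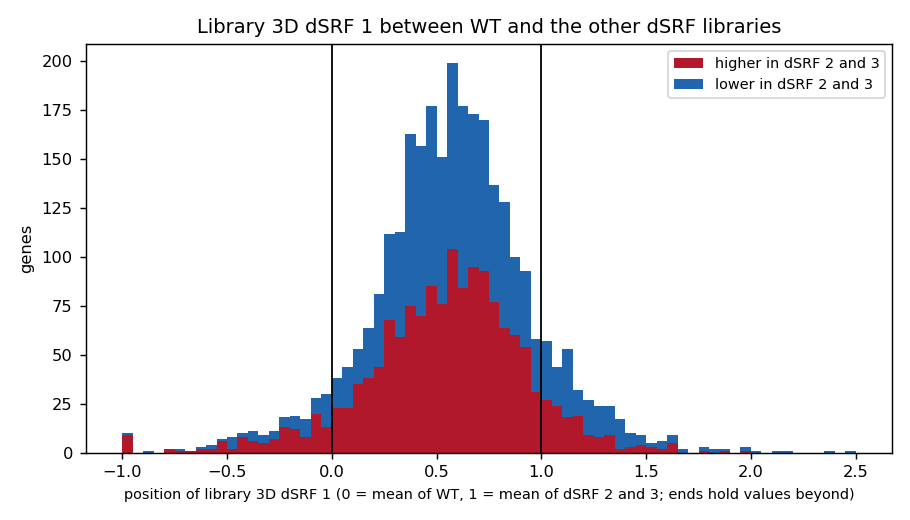
Position of the library labelled 3D dSRF 1 on a scale where 0 is the WT mean and 1 the mean of 3D dSRF 2 and 3 (x axis, from log2 CPM), as a count of genes (y axis), for genes higher (red) or lower (blue) in dSRF 2 and 3. Most of the 2913 genes lie between 0 and 1, around a median of 0.58.

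Of 14986 genes tested, 9869 were called (65.9%): 5129 were higher in dSRF (34.2%) and 4740 lower (31.6%). At least 2-fold changes were called for 2052 higher (13.7%) and 1497 lower genes (9.99%). Without library 1, 11015 genes were called (73.5%), 5504 higher (36.7%) and 5511 lower (36.8%). Of all calls, 9408 stood in the same direction in both fits, 2 turned, 459 were made only with library 1 and 1605 only without it. The libraries of the 2 groups did not overlap for 60.1% of genes tested, and the median log2 fold change over all genes was 0.016 (0.002 without library 1). Counts of list members below are to be read against these shares, since calls in either direction are common. An exact permutation test of 3 against 3 libraries cannot give a two-sided p below 0.10, so the tests are those of the fit across all genes.

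**Figure D2:**
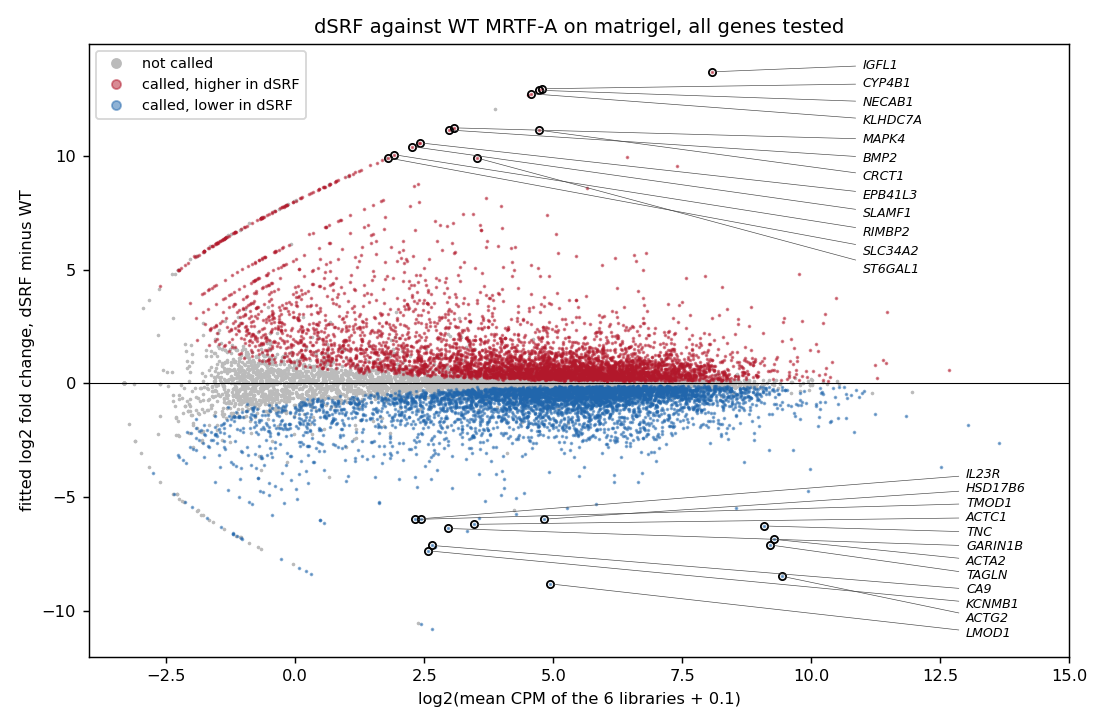
Fitted log2 fold change of dSRF minus WT on matrigel (y axis) against log2(mean CPM of the 6 libraries + 0.1) (x axis) for the 14986 genes tested; each point is a gene, coloured where called, and the 12 largest falls and 12 largest rises named by rule are circled. The falls include highly expressed contractile genes such as ACTG2, while most circled rises lie where WT held no counts, so that their plotted value depends on the fit's small prior.

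The genes with the largest falls included known targets of MRTF and SRF. The genes of the 4 promoters shown were between 59.0-fold (MYL7) and 380-fold (ACTG2) lower in mean CPM in dSRF than in WT. MYL7 is not among the 12 largest falls. All 4 promoters were picked from those that hold a CArG box. They are RefSeq promoters on GRCh38.p14, 250 bases before to 50 after the gene's start, written 5′ to 3′ on the gene's strand with CArG boxes in capitals. The box in ACTG2 nearest the start begins 73 bases before it and the other 110 bases before it. The box of ACTC1 begins 109 bases, that of MYL7 61 bases and that of GARIN1B 31 bases before the start.
ACTG2, chr2:73892758-73893057, plus strand: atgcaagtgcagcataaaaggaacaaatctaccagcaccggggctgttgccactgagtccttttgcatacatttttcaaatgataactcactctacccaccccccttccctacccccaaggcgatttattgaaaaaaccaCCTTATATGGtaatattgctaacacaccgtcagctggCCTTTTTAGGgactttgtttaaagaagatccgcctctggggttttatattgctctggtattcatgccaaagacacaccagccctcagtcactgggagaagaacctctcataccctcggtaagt
ACTC1, chr15:34795500-34795799, minus strand: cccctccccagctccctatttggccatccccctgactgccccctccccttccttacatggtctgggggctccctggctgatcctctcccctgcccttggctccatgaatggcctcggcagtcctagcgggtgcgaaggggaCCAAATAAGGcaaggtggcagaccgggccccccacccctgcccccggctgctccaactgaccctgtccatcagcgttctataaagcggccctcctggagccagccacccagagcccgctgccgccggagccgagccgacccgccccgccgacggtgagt
MYL7, chr7:44141283-44141582, minus strand: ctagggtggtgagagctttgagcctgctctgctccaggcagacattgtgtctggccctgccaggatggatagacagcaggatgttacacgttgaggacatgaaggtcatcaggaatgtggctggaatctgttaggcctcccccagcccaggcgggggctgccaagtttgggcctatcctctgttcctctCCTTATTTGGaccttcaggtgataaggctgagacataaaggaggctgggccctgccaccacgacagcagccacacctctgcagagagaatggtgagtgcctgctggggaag
GARIN1B, chr7:128708811-128709110, plus strand: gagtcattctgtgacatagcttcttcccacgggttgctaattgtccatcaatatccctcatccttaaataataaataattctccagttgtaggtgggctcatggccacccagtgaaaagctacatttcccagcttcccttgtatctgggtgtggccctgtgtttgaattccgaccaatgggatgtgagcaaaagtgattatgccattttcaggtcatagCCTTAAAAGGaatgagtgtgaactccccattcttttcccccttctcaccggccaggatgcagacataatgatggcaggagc
Both strands were searched for the CArG box, a motif that is its own reverse complement as a pattern. It was found in 351 of 27305 promoters in the table (1.29%) and in 121 of 10823 promoters of genes tested (1.12%). Among the actin, smooth muscle, myosin, tropomyosin and focal adhesion lists, 10 of 46 promoters held it (21.7%): those of ACTA1, ACTC1, ACTG1, ACTG2, CNN2, FHL2, FLNA, MYL7, MYLK and TPM4. It was in 3 of 9 matched promoters of the 12 largest falls and in 0 of 9 of the 12 largest rises. A match only describes these letters in this window.

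Actins and smooth muscle contractile genes were far lower in dSRF than in WT. All 5 actins tested fell at least 2-fold, with a median log2 fold change of -6.20 (-6.65 without library 1), where 9.99% of all genes fell at least 2-fold. ACTA2 (ENSG00000107796, chromosome 10, 88935074 to 88991339), smooth muscle alpha-actin, stood at 1246, 1226 and 1235 CPM in WT and at 7.35, 13.5 and 11.2 CPM in dSRF. The groups lay far apart, with dSRF above the control mean of 2.86 CPM. Its difference was -6.86 ± 0.21 (adjusted p = 1.52e-15). ACTG2 (ENSG00000163017), smooth muscle gamma-actin, held 1429, 1341 and 1352 CPM in WT and 9.58, 1.17 and 0.0986 CPM in dSRF, so that library 1 was the highest of its group by a wide margin. Control held no counts of it, and the fall was -8.49 ± 0.62 (adjusted p = 2.68e-09) or -11.11 without library 1. ACTC1, cardiac alpha-actin, held 20.6, 22.1 and 22.2 CPM in WT against 0.473, 0.107 and 0.247 CPM in dSRF (-6.20 ± 0.33, and -6.86 without library 1). ACTB, cytoplasmic beta-actin, fell from 22474, 21797 and 21534 CPM in WT to 5579.6, 2609 and 2605 CPM in dSRF (-2.61 ± 0.20, adjusted p = 8.53e-10), with dSRF 2 and 3 below the control mean of 3821 CPM. Actins are close paralogs, and the deposited estimates divide reads that fit several of them, so the split among them is uncertain.

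All 9 tested regulators of smooth muscle contraction also fell, 8 of them at least 2-fold, with a median of -2.22 (the value of CNN1) that went to -3.74 without library 1. CNN1, at 0 counts in dSRF 2 and 3, then moved past the middle of the list, so that shift depends on the fit's prior. LMOD1 (ENSG00000163431), a leiomodin that nucleates actin filaments, was at 60.6, 64.4 and 59.2 CPM in WT and 0.0859, 0.160 and 0.148 CPM in dSRF. Every dSRF library was near the control mean of 0.0361 CPM, and the difference was -8.82 ± 0.34 (adjusted p = 3.93e-14). TAGLN (ENSG00000149591), the actin-binding protein transgelin, held 1149, 1173 and 1191 CPM in WT and 17.2, 4.32 and 3.20 CPM in dSRF, where library 1 was above the other dSRF libraries. Without library 1 its fall deepened from -7.11 ± 0.43 to -8.29. SYNPO2, a myopodin of stress fibres, went from 21.4, 23.5 and 21.3 to 0.945, 1.55 and 1.73 CPM, and CSRP1, a LIM protein, from 479.8, 458 and 457 to 146, 126 and 127 CPM. CNN1, calponin, was near the limit of counting in both groups, at 0.140, 0.515 and 0.332 CPM in WT and 0.172, 0 and 0 CPM in dSRF, and its difference of -2.22 ± 0.86 (adjusted p = 0.0292) was -5.55 without library 1. That call was lost without WT 2 or 3 or dSRF 2 or 3, with only the libraries compared and on log2(TPM + 1).

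Other genes among the 12 largest falls had varied roles. KCNMB1, a subunit of smooth muscle potassium channels, stood at 12.3, 11.2 and 11.4 CPM in WT and 0.172, 0 and 0 CPM in dSRF. TMOD1, which caps actin filaments, held 9.49, 10.4 and 8.88 CPM in WT and 0.172, 0.160 and 0.0986 CPM in dSRF (-5.99 ± 0.33). GARIN1B held 15.4, 15.6 and 14.6 CPM in WT and 0.430, 0 and 0.0493 CPM in dSRF (-6.39 ± 0.38, and -8.86 without library 1). These genes were all under 0.5 CPM in every dSRF library. HSD17B6, a steroid-metabolising enzyme, was at 54.8, 60.3 and 50.5 CPM in WT and 0.859, 1.17 and 0.592 CPM in dSRF. IL23R, an interleukin receptor chain, was at 9.9996, 11.6 and 9.83 CPM in WT and 0, 0.160 and 0.345 CPM in dSRF (-5.96 ± 0.37, and -5.31 without library 1). CA9, a carbonic anhydrase induced by low oxygen, differed from the contractile genes in its control level: 13.2, 12.02 and 11.4 CPM in WT, 0.0859, 0.160 and 0 CPM in dSRF and 10.2 CPM in control.

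**Figure D3:**
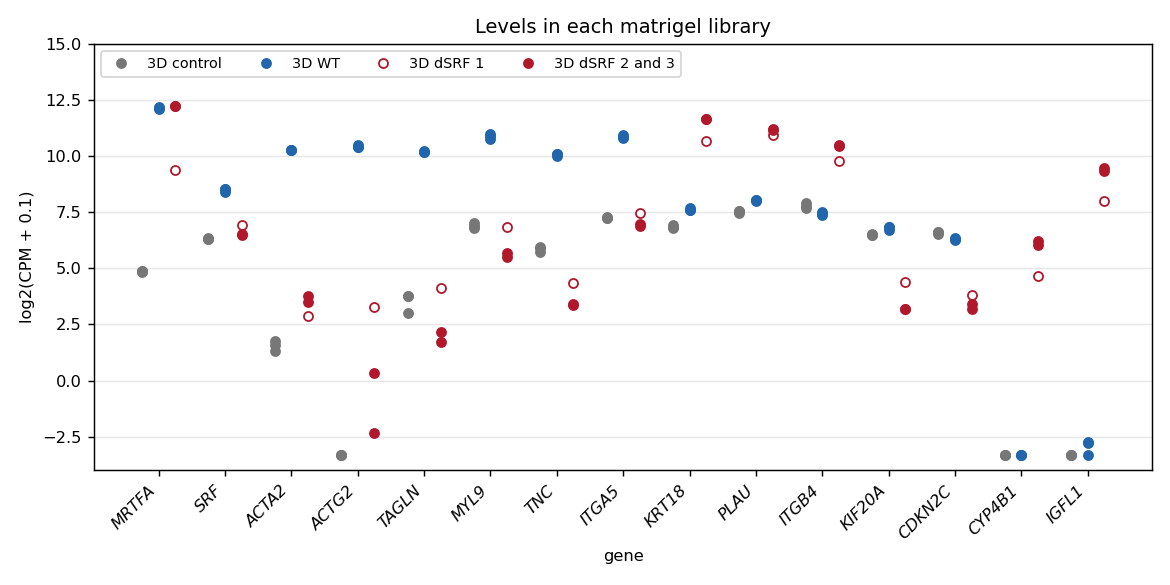
Levels of 15 genes (x axis) in each matrigel library as log2(CPM + 0.1) (y axis): control in grey, WT in blue, dSRF 2 and 3 in filled red and the library labelled 3D dSRF 1 as an open red circle. Contractile genes are high in WT alone, KRT18, PLAU and ITGB4 are highest in dSRF, KIF20A and CDKN2C are lowest in dSRF, and library 1 sits apart from its partners for MRTFA, ACTG2 and TAGLN.

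SRF and its partners moved less than the contractile genes. SRF stood at 372, 343 and 374 CPM in WT and 121, 92.4 and 88.2 CPM in dSRF, close to the control mean of 80.6 CPM, a fall of -1.85 ± 0.08 (adjusted p = 4.07e-13). MRTFB, the paralog of MRTFA, was 40.2, 41.4 and 41.4 CPM in WT and 22.5, 21.995 and 20.8 CPM in dSRF, below both WT and the control mean of 50.1 CPM. ELK1, a ternary complex factor, rose from 84.6, 86.2 and 84.6 CPM in WT to 198, 215 and 209.5 CPM in dSRF (1.28 ± 0.04, control mean 99.9 CPM). Of the 6 factors tested in this list, 1 rose, 2 fell and 3 were not called.

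Myosin II chains fell for 8 of 10 members tested, with a median of -0.94. MYL9, the regulatory light chain of smooth muscle, fell from 1760.4, 1918 and 2025 CPM in WT to 116, 51.5 and 46.0 CPM in dSRF (-4.74 ± 0.27, adjusted p = 1.92e-11). Library 1 was near the control mean of 119 CPM, and the other dSRF libraries were below it. MYL7, the atrial light chain, held 37.4, 37.6 and 39.2 CPM in WT and 1.93, 0 and 0 CPM in dSRF, so only library 1 held counts. Against dSRF 2 and 3, with a floor of 3 counts over the pair, WT was at least 495-fold higher. MYL6 fell (-1.19 ± 0.08), while MYL12B rose by 0.46 ± 0.05. MYH14, a non-muscle heavy chain found in epithelia, rose from 0.701, 0.572 and 0.522 to 4.68, 8.92 and 9.81 CPM (3.69 ± 0.35).

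All 4 tropomyosins, the filament proteins that wrap actin, fell, with a median of -1.89. TPM2 went from 73.8, 75.6 and 78.5 CPM in WT to 6.88, 8.27 and 8.68 CPM in dSRF, and TPM1 from 182, 189 and 196 to 53.6, 32.2 and 33.0 CPM. TPM4 fell by 1.53 on the log2 scale and TPM3 by 0.19, the smallest change of the list and one not called without dSRF 2, with only the libraries compared or on TPM values. Of 23 focal adhesion and stress fibre genes, 16 fell and 5 rose, with a median of -0.93. VCL, vinculin, was 1739, 1678 and 1622 CPM in WT and 563, 612 and 615 CPM in dSRF, which was above the control mean of 371 CPM. TGFB1I1, the adhesion protein Hic-5, fell by 2.58, PDLIM7 by 1.94 and ILK, an integrin-linked kinase, by 1.44 on the log2 scale. ANKRD1, a stretch-responsive ankyrin repeat protein also counted as a YAP target, went the other way, from 59.2, 61.5 and 64.3 CPM in WT to 1029, 369.6 and 393 CPM in dSRF (3.27 ± 0.27, and 2.63 without library 1). Library 1 held the highest level.

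**Figure D4:**
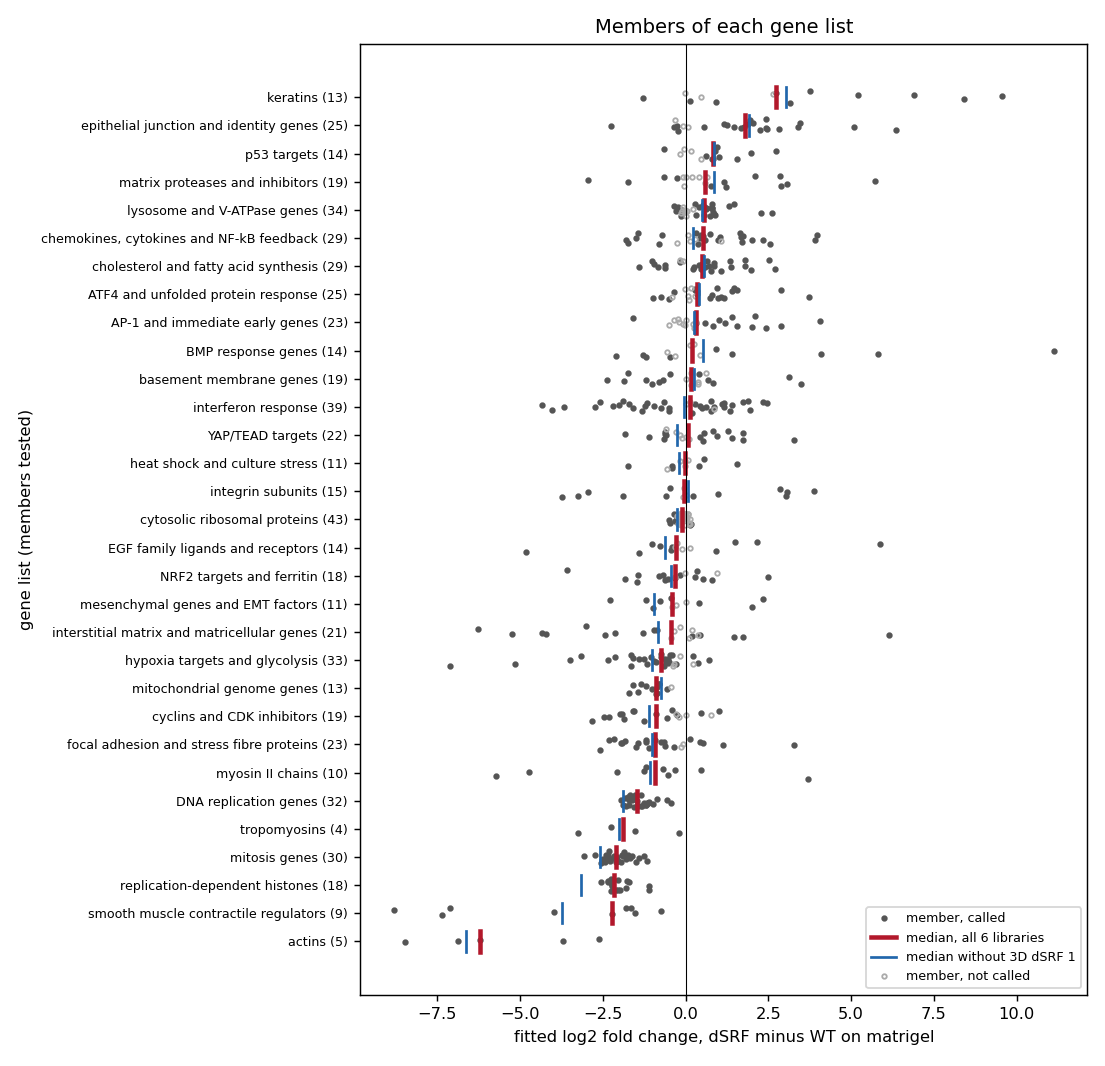
Fitted log2 fold change of dSRF minus WT on matrigel (x axis) for each tested member (points, dark where called) of 31 gene lists (y axis, with the number tested), with the list median over all 6 libraries (red) and without the library labelled 3D dSRF 1 (blue). Actins, smooth muscle regulators, histones and mitosis genes have the lowest medians and keratins and epithelial genes the highest.

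Matrix genes were split. Of 21 interstitial matrix genes 10 fell and 5 rose, with a median of -0.44 (-0.84 without library 1). TNC, tenascin-C, an adhesion-modulating matrix protein, stood at 1078, 1039.6 and 1096 CPM in WT and 20.4, 10.5 and 10.3 CPM in dSRF, where all libraries were below the control mean of 58.0 CPM (-6.27 ± 0.27, adjusted p = 3.44e-13). COL1A2, a type I collagen chain, fell from 139, 134 and 141 to 2.84, 9.02 and 9.12 CPM, with library 1 lowest. COL1A1, the other type I chain, went the other way in the fit, called at least 2-fold higher, but its dSRF libraries may differ widely. The fibroblast markers, which include it, summed to 18.2 TPM in the lowest dSRF library and 119 TPM in the highest. COL3A1 fell from 4.77, 6.24 and 6.32 to 0.0430, 0.214 and 0.197 CPM, and COL5A1 by 0.88 on the log2 scale. MFAP5, a microfibril protein, was at 0.0935, 0.114 and 0 CPM in WT and 10.3, 3.15 and 2.32 CPM in dSRF, again highest in library 1. Among 19 basement membrane genes 8 fell and 5 rose, with a median of 0.16, and without library 1 8 fell and 9 rose (median 0.26). The laminin chains LAMA3 (-2.37 ± 0.08), LAMC1 (-1.86 ± 0.10) and LAMB1 (-1.75 ± 0.10) and the collagen COL18A1 (-1.18 ± 0.07) fell. COL4A3, a type IV collagen chain, rose from 1.78, 1.26 and 1.85 to 5.50, 26.4 and 23.8 CPM, least in library 1.

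Of 15 integrin subunits 6 rose and 6 fell. ITGA5, the fibronectin receptor's alpha chain, fell from 1945, 1811 and 1863 CPM in WT to 174, 125 and 118 CPM in dSRF (-3.75 ± 0.13, adjusted p = 5.98e-15), around the control mean of 151 CPM. ITGB3, a chain of the vitronectin receptor, went from 148, 142 and 143 to 18.6, 13.2 and 13.9 CPM, and ITGA1, a collagen receptor chain, from 241, 247 and 236 to 56.0, 70.4 and 70.7 CPM. ITGB4, the laminin-binding chain of hemidesmosomes, rose from 181, 171 and 166 to 890.0, 1464 and 1414 CPM (2.86 ± 0.13, adjusted p = 3.05e-13), with all dSRF libraries above the control mean of 224 CPM. ITGB8, which activates latent TGF-beta, rose from 2.38, 1.60 and 1.33 to 8.34, 33.8 and 36.3 CPM.

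Of 19 proteases and inhibitors of the matrix, 8 rose and 4 fell. PLAU, urokinase, stood at 265, 259 and 265 CPM in WT and 1993, 2337 and 2275 CPM in dSRF (3.07 ± 0.11, adjusted p = 1.85e-14), and PLAT, the tissue-type activator of plasminogen, at 90.4, 90.8 and 99.9 and 359, 824 and 832 CPM. Both activators were lower in library 1 than in its partners and above WT in all. TIMP3, an inhibitor of metalloproteinases, fell from 1399, 1394 and 1443 to 255, 149 and 143 CPM (-2.95 ± 0.17), and ADAM19 from 250.4, 228 and 263 to 67.6, 77.0 and 77.9 CPM.

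YAP and TEAD targets, often shared with MRTF and SRF, went both ways: 10 of 22 rose and 6 fell, with a median of 0.07 that turned to -0.26 without library 1, when 10 rose and 10 fell. CCN1, a matricellular protein, stood at 623, 604 and 631 CPM in WT and 2722, 1090.1 and 1094 CPM in dSRF (1.40 ± 0.22, and 0.82 without library 1), and control averaged 137 CPM. CCN2, its relative, stood at 133, 131 and 128 CPM in WT and 125, 28.1 and 25.7 CPM in dSRF. Library 1 was within reach of WT and the other dSRF libraries were far lower, so the fall of -1.12 ± 0.36 (adjusted p = 0.011) was -2.28 without library 1, while it was not called without dSRF 2 (-0.78), without dSRF 3 (-0.76) or with only the libraries compared (-1.11). WWC1, the Hippo regulator KIBRA, rose (1.75 ± 0.05), as did MYOF, a membrane repair protein (1.72 ± 0.07), while RBMS3 (-1.82 ± 0.10) and AMOTL1 (-0.64 ± 0.05) fell.

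The 12 largest rises were genes with next to no counts in WT. IGFL1, an insulin growth factor-like ligand, held 256, 648 and 707 CPM in dSRF and 0.0467, 0 and 0.0475 CPM in WT. CYP4B1, a cytochrome P450, was at 25.4, 65.6 and 73.9 CPM in dSRF and 0 counts in WT, at least 1100-fold higher against a floor of 3 counts over the 3 WT libraries. By the same floor NECAB1, a calcium-binding protein, was at least 1050-fold higher (11.8, 70.2 and 75.4 CPM), and KLHDC7A, a kelch-domain protein, at least 944-fold (3.18, 69.6 and 69.0 CPM). MAPK4, an atypical kinase, was at least 334-fold higher, with 1.59, 24.7 and 23.8 CPM, and BMP2, a bone morphogenetic protein, at least 312-fold higher, with 4.17, 22.2 and 20.6 CPM. The bounds were 211 for EPB41L3, a membrane skeleton protein, 188 for SLAMF1, a receptor of immune cells, 147 for RIMBP2, a synaptic scaffold, and 134 for SLC34A2, a phosphate transporter. The calls of SLAMF1 and RIMBP2 were not made by DESeq2 (adjusted p = 0.0843 and 0.105). CRCT1, a cornified envelope gene, held 10.9, 79.0 and 69.2 CPM in dSRF and ST6GAL1, a sialyltransferase, 0.301, 35.7 and 32.3 CPM, each with 1 count in all of WT. Library 1 was the lowest dSRF library for each of these 12 genes, from 0.30 CPM for ST6GAL1 to 256 CPM for IGFL1.

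In all, 29 genes had a mean of at least 5 CPM in dSRF 2 and 3 with at most 3 counts in WT and in control. Library 1 was the lowest dSRF library for all 29. Choosing genes by high levels in dSRF 2 and 3 itself favours a lower rank for library 1. At least 1 CPM was reached by 18 of them in library 1, and by all 29 in dSRF grown in plates. Among the others, chosen here after their values were seen, were SOX4, a developmental transcription factor (1.25, 7.53 and 7.10 CPM in dSRF), KCNK1, a potassium channel (2.11, 13.8 and 14.9 CPM), SLPI, a protease inhibitor of epithelial secretions (1.93, 11.2 and 14.1 CPM), and PRDM9, a meiotic histone methyltransferase (1.20, 13.4 and 14.2 CPM).

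Keratins and epithelial genes were higher in dSRF. Of 13 keratins 9 rose and 1 fell, with a median of 2.74 (3.05 without library 1). KRT18 stood at 192, 194 and 204 CPM in WT and 1644, 3183 and 3209 CPM in dSRF (3.77 ± 0.17, adjusted p = 4.65e-13), and its filament partner KRT8 at 582, 574 and 554 and 3575, 5807 and 5886 CPM (3.16 ± 0.12). Control averaged 116 CPM of KRT18 and 279 CPM of KRT8, below both groups. KRT19 rose from 237, 236 and 229.9 to 836, 1914 and 1953 CPM, and KRT7 by 0.92 ± 0.05. KRT81, a hair keratin, fell (-1.27 ± 0.23). KRT17, a keratin of basal and stressed epithelium, was 95.9, 95.4 and 96.2 CPM in WT and 51.01, 109 and 124 CPM in dSRF, with library 1 below WT and the others above it. Its difference was -0.02 ± 0.20 (adjusted p = 0.951) and not called, but 0.29 (adjusted p = 6.50e-04) without library 1. Several keratins are near-identical copies, and their estimates are uncertain.

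Of 25 epithelial junction and identity genes 18 rose and 4 fell, with a median of 1.78. SPINT1, an inhibitor of matriptase, rose from 17.01, 18.03 and 18.8 CPM in WT to 99.7, 258 and 236 CPM in dSRF, and CGN, the tight junction protein cingulin, from 1.45, 1.89 and 1.14 to 25.1, 62.4 and 64.9 CPM. SPINT2 (1.78 ± 0.09) and PKP3, a desmosomal plakophilin (1.17 ± 0.09), also rose. CDH3, P-cadherin, fell from 18.5, 17.2 and 17.7 to 0.688, 4.59 and 5.92 CPM. EPCAM, an epithelial adhesion molecule, was 18.7, 17.7 and 18.4 CPM in WT and 54.4, 122 and 124 CPM in dSRF, and FOXA1, a luminal transcription factor, 0.0935, 0 and 0.142 CPM in WT and 0.817, 19.5 and 18.2 CPM in dSRF. CDH1, E-cadherin, was under 1 TPM in each of the 6 libraries. Of 11 mesenchymal genes and EMT factors 5 fell and 3 rose, with a median of -0.40, and without library 1 8 fell (median -0.94). SNAI1 (-2.29 ± 0.34) and ZEB1 (-0.76 ± 0.10), repressors of epithelial genes, fell. CD44 (0.41 ± 0.05), S100A4 (2.00 ± 0.15) and FAP, a fibroblast protease (2.34 ± 0.83), rose, the last a call lost without WT 1 (adjusted p = 0.0717), without dSRF 3 (adjusted p = 0.106), with only the libraries compared (adjusted p = 0.0893) and on log2(TPM + 0.1) (adjusted p = 0.153).

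Genes of cell division fell together. All 30 mitosis genes tested fell at least 2-fold, with a median of -2.09 (-2.60 without library 1) and a range of -3.07 to -1.17, where 9.99% of all genes fell at least 2-fold. KIF20A, a kinesin of the cleavage furrow, stood at 114, 115 and 104 CPM in WT and 21.1, 9.08 and 8.87 CPM in dSRF, with library 1 the highest of its group and control at 89.8 CPM (-3.07 ± 0.20, adjusted p = 1.37e-10). ESPL1, separase, went from 85.7, 77.6 and 86.4 to 28.7, 17.9 and 18.7 CPM. CENPF, a kinetochore protein (-1.51 ± 0.07), and TPX2, a spindle assembly factor (-1.17 ± 0.08), fell less. Library 1 lay between WT and its partners for all 30 genes, at a median of 0.52 of the way. In bulk RNA, fewer dividing cells and less of these RNAs per cell cannot be told apart.

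All 32 DNA replication genes fell, 28 of them at least 2-fold, with a median of -1.47 (-1.88 without library 1). LIG1, the ligase of Okazaki fragments, stood at 78.5, 75.1 and 81.2 CPM in WT and 26.3, 18.1 and 20.9 CPM in dSRF. ORC6 (-1.64 ± 0.10) of the origin recognition complex, GINS3 (-1.62 ± 0.10) of the replicative helicase and POLA1 (-0.98 ± 0.06), the primase-associated polymerase, fell as well. All 18 replication-dependent histone genes fell at least 2-fold, with a median of -2.15 that was -3.16 without library 1. H2BC21 went from 198, 218 and 195 to 70.6, 22.8 and 25.05 CPM and H1-2, a linker histone, from 496, 553 and 529 to 215, 83.2 and 102 CPM. Histones took 0.260% to 0.289% of counts in WT, 0.133% in library 1 and 0.0423% and 0.0473% in its partners. Histone genes share near-identical copies, which makes values of single members uncertain.

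Of 19 cyclins and CDK inhibitors 13 fell and 2 rose. CDKN2C, an inhibitor of CDK4 and CDK6, fell from 78.2, 81.1 and 77.7 CPM in WT to 13.9, 9.13 and 10.4 CPM in dSRF (-2.82 ± 0.10, adjusted p = 1.41e-14). CDK2 (-1.55 ± 0.08), CCNB1 (-1.24 ± 0.09) and CCNB2 (-1.87 ± 0.14), which drive S phase and mitosis, fell. CDKN1A, the inhibitor p21, rose from 281, 258 and 283 to 414, 622 and 627 CPM. Of 14 genes known as p53 targets 9 rose and 1 fell (3 without library 1), with a median of 0.82. BTG2, an antiproliferative factor, rose from 3.36, 3.15 and 3.99 to 15.1, 27.1 and 28.004 CPM, TP53I3 by 1.97 ± 0.21 and the death receptor FAS by 1.55 ± 0.14. MDM2, the ubiquitin ligase of p53, fell (-0.64 ± 0.14), a call lost with only the libraries compared (adjusted p = 0.0758).

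Immediate early and stress genes were more often higher than lower. Of 23 AP-1 and immediate early genes 12 rose and 1 fell, but 7 fell without library 1. DUSP1, a MAP kinase phosphatase, stood at 11.03, 11.8 and 11.02 CPM in WT and 125, 224 and 213 CPM in dSRF (4.05 ± 0.20, adjusted p = 1.22e-12), and DUSP6, a phosphatase of ERK, at 36.2, 36.6 and 35.004 and 122, 220.1 and 237 CPM. ATF3 (2.00 ± 0.10) and KLF4 (1.42 ± 0.10) rose and KLF2 fell (-1.58 ± 0.22). Of 25 genes of the ATF4 and unfolded protein responses 15 rose and 4 fell, with a median of 0.35. CHAC1, an ATF4 target that degrades glutathione, rose from 2.48, 1.66 and 1.42 to 26.6, 23.01 and 24.8 CPM, and the serine synthesis and one-carbon enzymes PHGDH (2.88 ± 0.20), SHMT2 (1.15 ± 0.05) and PSAT1 (1.07 ± 0.07) rose. HSP90B1, an ER chaperone, fell (-0.99 ± 0.07).

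Of 29 cholesterol and fatty acid synthesis genes 20 rose and 7 fell, with a median of 0.50. FADS1, a fatty acid desaturase, stood at 131, 133 and 131 CPM in WT and 563, 873 and 833 CPM in dSRF. Library 1 was the lowest dSRF library for it. Of 34 lysosome and V-ATPase genes 21 rose and 5 fell (9 without library 1), with a median of 0.55. NPC2, a lysosomal carrier of cholesterol, rose by 0.77 ± 0.05 and ATP6V1B2 by 0.56 ± 0.03. GUSB fell (-0.34 ± 0.06). The sialidase NEU1 rose by 2.61 ± 0.06, a value that is uncertain because the gene lies in the MHC region of chromosome 6.

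Hypoxia and glycolysis genes fell for 26 of 33 members and rose for 3, with a median of -0.74 (-1.001 without library 1). EGLN3, an oxygen-sensing hydroxylase, stood at 25.05, 25.7 and 23.8 CPM in WT and 0.859, 0.694 and 0.493 CPM in dSRF, with control at 17.1 CPM (-5.16 ± 0.18, adjusted p = 6.42e-15). LDHA, lactate dehydrogenase, went from 2024, 2022 and 1982 to 749, 585 and 605 CPM, and PDK1 (-1.64 ± 0.08) and PFKL (-1.40 ± 0.08) fell. VEGFA, an angiogenic factor, rose (0.70 ± 0.08). Of 18 NRF2 targets and ferritin genes 10 fell and 5 rose. TALDO1, of the pentose phosphate pathway, fell by 0.61 and OSGIN1 by 1.45 on the log2 scale, while HMOX1, haem oxygenase, rose from 5.42, 4.29 and 5.98 to 20.8, 34.4 and 33.2 CPM.

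Interferon response genes were evenly split, with 18 of 39 higher and 18 lower. GBP2, a guanylate-binding protein, fell from 137, 143 and 131 CPM in WT to 9.97, 7.90 and 7.20 CPM in dSRF, the ubiquitin-like ISG15 by 2.00 and the RNA sensor RIGI by 1.88 on the log2 scale. MX2 rose from 4.39, 3.55 and 4.27 to 8.90, 31.2 and 27.3 CPM and IFI35 by 1.72 ± 0.11. Of 29 chemokines, cytokines and NF-kB feedback genes 18 rose and 6 fell, which became 14 and 10 without library 1. CXCL16, a transmembrane chemokine, rose from 24.2, 23.9 and 23.2 to 103, 162 and 156 CPM, LIF from 43.9, 41.8 and 46.2 to 165, 183 and 184 CPM and RELB by 0.99 ± 0.07. BIRC3, an inhibitor of apoptosis, fell from 377, 401 and 391 to 189, 70.8 and 72.1 CPM (-1.81 ± 0.24, and -2.45 without library 1), and TNFRSF9 by 1.74 on the log2 scale.

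Among 14 ligands and receptors of the EGF family 6 fell and 4 rose. EGF stood at 38.9, 42.7 and 42.3 CPM in WT and 1.38, 1.55 and 1.43 CPM in dSRF, with control at 2.44 CPM (-4.83 ± 0.11, adjusted p = 2.22e-17). HBEGF was 144, 142 and 155 CPM in WT and 107, 27.9 and 29.5 CPM in dSRF, so that the fall of -1.41 ± 0.31 was -2.36 without library 1, and it was not called with only the libraries compared (adjusted p = 0.0805). The receptor ERBB3 rose from 10.5, 9.96 and 9.83 to 21.8, 32.1 and 32.3 CPM, and ERBB4 was at 0.945, 1.65 and 1.58 CPM in dSRF with 1 count in all of WT. Among 14 BMP response genes 5 rose and 4 fell, and 8 rose without library 1. Beside BMP2, the Notch and BMP effectors HEY1 (0.234, 0.172 and 0.285 CPM in WT, 1.76, 4.80 and 5.62 CPM in dSRF) and HES1 (7.38, 7.50 and 7.88 and 7.56, 26.4 and 25.9 CPM) rose. Library 1 was within the WT range for HES1 and above it for HEY1.

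RNA of other cell types and measures of RNA make-up were set beside these results. The p16 locus genes CDKN2A and CDKN2B, deleted in MDA-MB-231, held no counts in any of the 24 libraries, and all 12 markers listed for the line reached 1 TPM in both groups, summing to 6330 to 6630 TPM in WT and 8700 to 9320 TPM in dSRF, although 6 of them fell and 3 rose (median -0.38). Markers listed as low or absent in the line summed to 85.7 to 107 TPM in WT and 172 to 351 TPM in dSRF, and 3 of the 6 tested rose. Fibroblast markers summed to 90.3 to 99.9 TPM in WT and 18.2 to 119 TPM in dSRF, with DCN at 0 counts. Of the 6 tested, 4 fell and 2 rose, COL1A1 and FAP, each at least 2-fold. The dSRF and WT libraries did not overlap for 4 of these 6, and for 60.1% of all genes tested. Endothelial markers summed to 0.949 to 1.11 TPM in WT and 8.36 to 12.4 TPM in dSRF. Of the 3 tested, 2 rose: VWF was 6.02, 34.97 and 36.04 CPM in dSRF and KDR 22.7, 5.23 and 4.73 CPM. The third, TEK, went the other way (-1.75 in log2) and was not called. CLDN5 was at 0 counts and CDH5 and PECAM1 under 1 TPM. Immune markers summed to 46.6 to 50.3 TPM in WT and 138 to 199 TPM in dSRF. CD68, a lysosomal protein of macrophages also made elsewhere, rose from 39.7, 35.8 and 37.5 to 142, 186 and 170.0 CPM, CD14 fell from 10.2, 11.28 and 9.59 to 2.66, 3.74 and 3.30 CPM, and MS4A1 and NKG7 were at 0 counts. Their part in the results above was not tested.

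Genes of the mitochondrial genome took 1.18% to 1.42% of counts in WT and 0.448% to 0.851% in dSRF. Of 13, 12 fell and 0 rose, and 6 fell without library 1. MT-CO1 was 5199.9, 5305 and 5439 CPM in WT and 1533, 2666 and 1717 CPM in dSRF. Cytosolic ribosomal protein genes, 43 tested, fell for 10 and rose for 2, with a median of -0.11, while without library 1 33 fell and 0 rose (median -0.27). RPS2 was 556, 567 and 567 CPM in WT and 568, 319 and 326 CPM in dSRF, with library 1 at the WT level, and its call was lost with only the libraries compared. On log2(TPM + 1) the median of this list was 0.038, opposite in sign to the count fit, and that of all genes 0.10, against 0.016 from counts. Of 11 heat shock genes 3 rose and 3 fell, or 6 fell without library 1: HSPB1, a small chaperone, went from 595, 601 and 629 to 149, 217 and 179 CPM and HSPB8 from 25.3, 25.02 and 24.1 to 56.8, 80.8 and 80.96 CPM. Whether these shifts bear on the other lists was not tested.

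The same comparison in plates called 9594 genes (64.0%), and the difference between the cultures was itself called for 4942 genes (33.0%), 2461 with a higher (16.4%) and 2481 with a lower value on matrigel (16.6%). On log2(TPM + 1) the calls leaned further to 1 side: 6026 higher and 2996 lower in plates, against 5039 and 4555 from counts, and 1562 higher and 2482 lower for the difference between cultures. Without library 1 it was called for 7134 genes (47.6%), 3282 higher (21.9%) and 3852 lower (25.7%). The falls of dividing-cell genes were larger on matrigel: the mitosis median was -1.02 in plates, and 27 of 30 members had a called difference toward lower values on matrigel. DNA replication genes had a median of -0.35 in plates, where 16 fell and 2 rose while 30.4% of all genes fell and 33.6% rose, and 24 of 32 had a called difference toward lower values on matrigel. Cholesterol genes had a called difference toward higher values on matrigel for 20 of 29, and ATF4 and unfolded protein genes for 18 of 25. In plates those lists had medians of -0.22 and -0.17.

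Named genes show these differences between cultures. On the log2 scale LMOD1 fell by 5.37 in plates and fell by 8.82 on matrigel, a difference of -3.45 (adjusted p = 6.89e-05) that was -0.24 and not called on log2(TPM + 1), and ACTG2 fell by 5.07 in plates and fell by 8.49 on matrigel (-3.41, adjusted p = 0.00129, and -6.06 without library 1). ATOH8, a BMP-induced transcription factor, was 1.81, 2.10 and 2.53 CPM in dSRF and 0.240, 0.0699 and 0.191 CPM in WT in plates, but 0.0859, 4.38 and 3.35 and 10.1, 10.6 and 11.7 CPM on matrigel, so the dSRF line was above WT in plates and below it on matrigel (-5.70, adjusted p = 1.88e-04). With only the libraries compared its lower level on matrigel was not called (adjusted p = 0.118). PLEKHG4B, a guanine nucleotide exchange factor, went from 0.209, 0.559 and 0.362 CPM in dSRF and 0.0600, 0.140 and 0.0637 in WT in plates to 0.473, 1.17 and 1.82 and 6.73, 6.64 and 8.03 CPM on matrigel. FIBCD1, a chitin receptor, rose less on matrigel (-3.34). DMBT1, a mucin-like scavenger (3.44), and LTF, lactoferrin (3.56), had higher dSRF minus WT values on matrigel than in plates. ANO2, a chloride channel (3.64), and ADM2, a peptide of the adrenomedullin family (3.52), were highest in library 1, at 20.8 and 5.29 CPM. ADM2 was lower in dSRF than in WT in plates (-2.04) and higher on matrigel (1.48, and 0.91 without library 1).

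**Figure D5:**
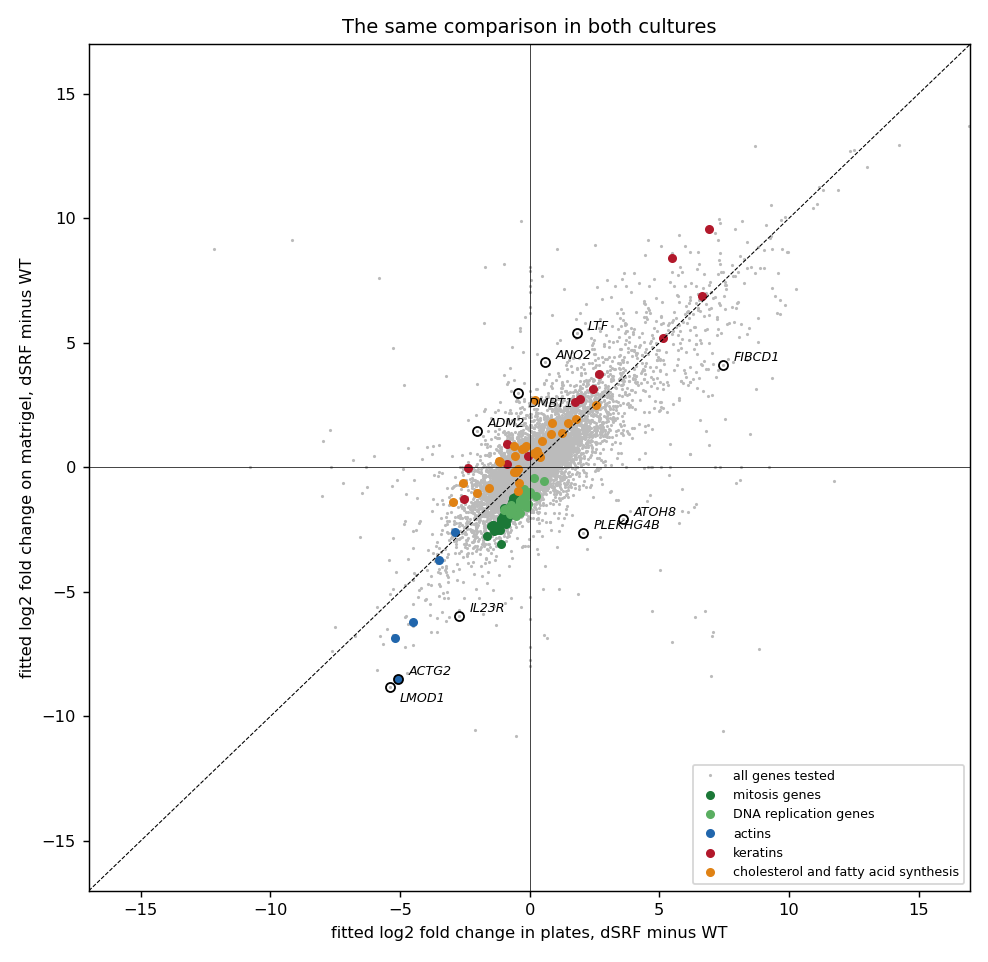
Fitted log2 fold change of dSRF minus WT in plates (x axis) and on matrigel (y axis) for each gene tested, with 5 gene lists coloured, 10 genes with large differences between cultures circled and the line of equal change dashed. Mitosis and DNA replication genes lie below the line and most cholesterol genes above it. ATOH8, PLEKHG4B and ADM2 are among the genes with opposite signs in the cultures.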

How the data were processed

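Per the labels' protocols, RNA from a spin column kit went into stranded total RNA libraries depleted of ribosomal RNA; the molecule field, by contrast, reads polyA RNA. Per the submitters' processing notes, FastQC and Salmon (version 11.3 as written) were used with hg38. For the annotation, nothing is given in the sources used here. Per gene, the deposited expected counts were estimated by the authors with Salmon, per the same notes; 26.3% were not whole, and all were rounded here. The TPM values were also made by the authors, as deposited. Of 37247 gene ids, 34436 were matched to a symbol and 34620 to a position with GENCODE 29 and a table of gene names. Totals of the 6 libraries ran from 17618179 to 23023415 counts (13968829 to 23023415 over all 24), which fixes the precision of low counts, and SEs and intervals cover the spread between libraries only.

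All 24 libraries, in 8 groups from the titles, were fitted in 1 quasi-likelihood model with edgeR 4.0.16 (R 4.3.3; filterByExpr, TMM factors 0.890 to 1.09, robust; 16 residual degrees of freedom, common biological variation 13.1%). P-values were Benjamini-Hochberg adjusted over all 14986 genes tested (965 without a symbol). The genes compared and the 37 lists were chosen with earlier results of these data known. Named genes were drawn from 16 fixed genes, the 12 largest rises and 12 largest falls (called with and without the library labelled 3D dSRF 1, non-overlapping libraries, at least 5 CPM in the higher group, outside near-identical families and the MHC region), the 6 largest differences between cultures each way, and up to 4 members of lowest p per list with the largest opposite move; not all are printed, and some genes are not reported here. In the fit with all 6 libraries, no list median moved when genes at 0 counts were set to their bound. The fit without library 1 was not checked in this way. Folds against 0 counts use a floor of 3 counts over the group. Alternatives were RLE factors, no filter, DESeq2 1.42.0, limma-trend (limma 3.58.1) on log2 of TPM plus 1 or 0.1, groups from the genotype field, a replicate block, fits of only the libraries compared or with each library omitted, and, chosen after seeing the data, only the libraries compared without 3D dSRF 1.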

Additional observations from a re-analysis of the deposited data

Results flagged for a closer look

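The difference of dSRF minus WT was itself tested between cultures, and each gene here is listed because that test was called (edgeR, adjusted p under 0.05 over all genes), as it was for 4942 of 14986 genes. Values are log2 on matrigel minus in plates, with 3 libraries per group. Among contractile and cytoskeletal genes, these fell further on matrigel: LMOD1 by -3.45, ACTG2 by -3.41, MYL7 by -2.99, TMOD1 by -2.87, ACTC1 by -1.71, ACTA2 by -1.67, TAGLN by -1.45 and MYL9 by -0.93. Their lists were mixed: the difference was called lower for 3 and higher for 0 of 5 actins, lower for 3 and higher for 2 of both the 9 smooth muscle regulators and the 10 myosins, 1 and 1 for 4 tropomyosins, and lower for 2 and higher for 12 of 23 focal adhesion genes. Other genes that fell further there were IL23R (-3.22), CA9 (-2.62), GARIN1B (-1.88), TNC (-1.58), HSD17B6 (-1.20) and MRTFB (-0.65). ATOH8 (-5.70) and PLEKHG4B (-4.68) turned from higher in dSRF in plates to lower on matrigel, and FIBCD1 (-3.34) rose less. ADM2 turned the other way, from -2.04 in plates to 1.48 on matrigel. CCN1, higher in dSRF on matrigel, averaged 1920 TPM in dSRF and 2980 TPM in WT in plates. Higher values on matrigel were found for ANO2 (3.64), LTF (3.56), ADM2 (3.52), DMBT1 (3.44), KRT17 (2.37), CCN1 (2.22) and CCN2 (1.52). The library labelled 3D dSRF 1 was the highest of its group for ANO2, ADM2, CCN1 and CCN2. Without it the differences were 0.36 for CCN2, 1.63 for CCN1, 3.03 for ANO2 and 2.95 for ADM2. Taken as folds rather than log2 values, other differences moved by over 1.5 times without it, in either direction. In log2 they became -6.06 for ACTG2, -9.70 for MYL7, -4.36 for GARIN1B, -2.64 for TAGLN, -2.38 for ACTC1, -2.58 for IL23R and -5.10 for ATOH8. MYL7 held 0 counts in 3D dSRF 2 and 3, so its value depends on the fit's prior.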

How the results depend on the processing

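Totals of called genes stayed within 1.5 times of the main ones under RLE factors, without the low-count filter, with DESeq2 and with the replicate block (9767 on matrigel, 9498 in plates, 4802 between cultures). Same-numbered 3D WT and dSRF libraries deviated from their group means with correlations of -0.027, 0.019 and 0.039. The same number gave the highest correlation for WT 2 and WT 3 but not for WT 1. With 3D dSRF 1 lying apart from its group, these values cannot exclude a pairing. The block ended no call of a named gene. Only the libraries compared gave 3086 lower genes on matrigel in place of 4740. On log2(TPM + 1) and log2(TPM + 0.1) the difference between cultures was higher for 1562 and 1521 genes in place of 2461, and 2996 and 3017 genes were lower in plates in place of 4555. Leaving out 1 library at a time gave 9167 to 11015 calls on matrigel (4786 to 5504 higher, 4327 to 5511 lower) and 4247 to 7134 between cultures (2095 to 3282 higher, 2148 to 3852 lower), the highest values without 3D dSRF 1, and 8909 to 10702 in plates. Across these fits MRTFA ran from -0.715 to 0.103 and KRT17 from -0.26 to 0.286, the highest values without 3D dSRF 1, and they went to 0.111 and 0.295 with only the libraries compared and that library omitted. Allowing 1 mismatch in the A/T core, 8.34% of all promoters, 7.59% of those tested, 32.6% of the cytoskeletal lists and 66.7% and 0% of the largest falls and rises held a CArG box. Groups from the genotype field, which mix lines, gave 0 calls by edgeR in each comparison and 279 (matrigel), 42 (plates) and 87 (between cultures) genes at an unadjusted p under 0.05; no other tool was run on them. Under them the uncalled differences on matrigel turned sign for MRTFA 1.88, SRF 0.39, ACTA2 0.23, ACTG2 0.64, ACTC1 0.74, TAGLN 0.16, LMOD1 0.28, MYL9 0.75, MYL7 2.00, VCL 0.31, CCN1 -0.67, TNC 0.43, KRT17 0.64, KCNMB1 0.13, GARIN1B 0.55, TMOD1 0.59, HSD17B6 0.51, IL23R 0.68, PLEKHG4B 0.12, ANO2 -1.17, ADM2 -0.69, ELK1 -0.010, ACTB 0.36, CSRP1 0.24, SYNPO2 0.34 and MYL6 0.11. Others were TPM4 0.28, TPM2 0.59, TPM1 0.11, TGFB1I1 0.49, PDLIM7 0.52, ILK 0.068, ANKRD1 -1.17, RBMS3 0.18, AMOTL1 0.045, COL3A1 0.30, COL1A2 0.25, MFAP5 -2.09, LAMA3 0.046, LAMC1 0.062, LAMB1 0.068, ITGA5 0.39, ITGB3 0.51, ITGA1 0.19, ADAM19 0.35, KRT81 0.66, PKP3 -0.065, CDH3 0.65, S100A4 -0.58, CD44 -0.30, SNAI1 0.056 and ATF3 -0.12. Others were KLF4 -0.22, SHMT2 -0.017, PHGDH -0.072, VEGFA -0.14, GBP2 0.46, ISG15 0.29, RIGI 0.56, IFI35 -0.058, RELB -0.16, EGF 0.43, TALDO1 0.026, CDK2 0.006, ORC6 0.054, NEU1 -0.043, NPC2 -0.24, MT-CO1 0.10, HSPB1 0.31, CD14 0.17 and KDR -1.31. Between cultures they turned for ATOH8 1.22, FIBCD1 1.31, IL23R 0.40, ANO2 -1.47 and ADM2 -1.21. Depth limits genes near 0 counts, whose fitted changes depend on the prior.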
